A study of Mus musculus with 21 samples.

Results

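In SMB21, a cell line of mouse medulloblastoma of the sonic hedgehog (SHH) type, 85 of 24047 counted genes had fewer reads after both 2 h and 24 h of the histone deacetylase (HDAC) inhibitor JNJ (quisinostat). They were selected on these values: a mean of at least 10 CPM (read counts scaled by the total of the library) in DMSO at both times, a mean in JNJ of at most 0.55 times DMSO at both times, and no overlap between the JNJ and DMSO libraries at either time. Of the 9268 genes with that minimum in DMSO, 90 met the rule, and 5 of these (Ccnd1, Atoh1, Insm1, Ccne2 and Bhlhe22), together with Myc and Mycn, which did not meet it, were left out by name. The JNJ and DMSO values of the 85 are therefore given as a description, with no test. The hairpin libraries played no part in the selection, and the tests below are on those.

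Histone deacetylases remove acetyl groups from lysines of histones and other proteins, and HDAC1 and HDAC2 are the catalytic subunits of several co-repressor complexes. Inhibitors that block them raise histone acetylation within minutes to hours, yet many genes lose expression, a loss often described for genes of cell identity and for short-lived messages. SHH medulloblastoma arises from granule neuron progenitors of the cerebellum, whose identity rests on transcription factors such as ATOH1, BARHL1, PAX6 and the ZIC proteins.

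The libraries fall into 7 groups of 3. SMB21 cells received DMSO, the solvent, or JNJ, for 2 h or 24 h, and other SMB21 cells received a virus that codes for a short hairpin RNA against luciferase (shLuc, the control), Hdac1 (shHdac1) or Hdac2 (shHdac2) and were then selected with puromycin. All groups are the same cell line, a dose of JNJ is not given in the sources used here, and nothing says whether the 3 libraries of a group are separate cultures. The p-values therefore rest on a spread between libraries that may be technical only. Libraries held 23094799 to 39341784 counts.

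The cell line label was checked against marker genes. The sum of 10 markers of granule neuron progenitors and SHH medulloblastoma ranged from 1601 to 1925 CPM with DMSO and 1016 to 1429 with JNJ at 2 h, and from 1752 to 2201 CPM with DMSO and 1291 to 1612 with JNJ at 24 h. Barhl1 and Pax6, both among the 85, are in this sum, as are Atoh1 and Mycn, which were left out by name. The 23 markers of astrocytes, oligodendrocytes, immune, endothelial, mesenchymal and epithelial cells had lower sums. At 2 h these ranged from 24.2 to 37.8 CPM with DMSO and from 22 to 39.3 with JNJ. At 24 h they ranged from 23.6 to 39.6 CPM with DMSO and from 36.2 to 55.8 with JNJ. For the hairpins the range was 52.0 to 67.5 CPM (shLuc), 24.2 to 87.6 (shHdac1) and 37.6 to 86.9 (shHdac2). The sum for granule progenitors had no overlap between hairpins, at 1852 to 2199 CPM (shLuc), 1664 to 1730 (shHdac1) and 1554 to 1605 (shHdac2). Its markers did not move alike. Atoh1 and Ccnd2 had lower means with both hairpins (Ccnd2 480, 371 and 231 CPM in shLuc, shHdac1 and shHdac2). Ptch1 had higher means with both (121, 189 and 144 CPM), and Neurod1 had a higher mean in shHdac2 (88.0 against 63.4 CPM in shLuc). The markers Sox10, Mog, Ptprc and Aif1 had group means of at most 0.153 CPM everywhere, but others of the 23 were higher. Gfap, of the astrocyte list, had means of 8.47 CPM in DMSO 24 h, 16.0 in shLuc and 23.3 in shHdac1. Pdgfra, of the oligodendrocyte list, had 7.29 CPM in DMSO 24 h, 18.2 in shLuc and 20.1 in shHdac2. The rise of the 23 markers in JNJ 24 h went with Col1a1, at 19.7 CPM against 0.883 in DMSO 24 h, and its part in the values below was not tested.

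The 85 genes together held a similar amount of RNA at both times, and lost a similar amount. The rule set the same highest ratio at both times, so the likeness of the losses is partly set by the selection. Their summed level was 6409 ± 77.2 CPM in DMSO 2 h and 2878 ± 305 CPM in JNJ 2 h (mean ± SD, n = 3), then 6401 ± 111 CPM in DMSO 24 h and 2837 ± 322 CPM in JNJ 24 h. By the rule, 275 of the 9268 genes (2.97%) were lower at 2 h, 605 (6.53%) at 24 h and 90 (0.971%) at both times. The median ratio of JNJ to DMSO over the 85 was 0.463 at 2 h (range 0.176 to 0.549) and 0.436 at 24 h (0.0831 to 0.548), where all 9268 genes had medians of 0.991 and 1.01. In bulk RNA, fewer cells that express a gene and less of its RNA per cell cannot be told apart.

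The rule set the same highest ratio at both times and left out genes lowered at only a single time. A like ratio is therefore partly set by the selection. Most of the 85 had a like ratio at both times. In 67 the ratios at 2 h and 24 h lay within 1.5 times of each other, in 10 the 24 h ratio was lower by more than that, and in 8 it was higher by more than that. At most 0.4 of DMSO was left at both times for 14 genes. Without drug the median level differed little between the times, while single genes differed more. The ratio of DMSO 24 h to DMSO 2 h had a median of 0.996 and ran from 0.644 to 1.62. On the log2 scale of edgeR, with libraries scaled by TMM, the median over the 85 was -1.11 at 2 h (lowest -2.53, highest -0.86) and -1.36 at 24 h (lowest -3.75, highest -1.02). The median of all 14467 genes in that fit was 0.03 and 0.01, but at 24 h it was 0.17 when libraries were scaled by their totals and 0.12 by their upper quartile, and the median of the 85 was then -1.20 by totals.

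**Figure D1:**
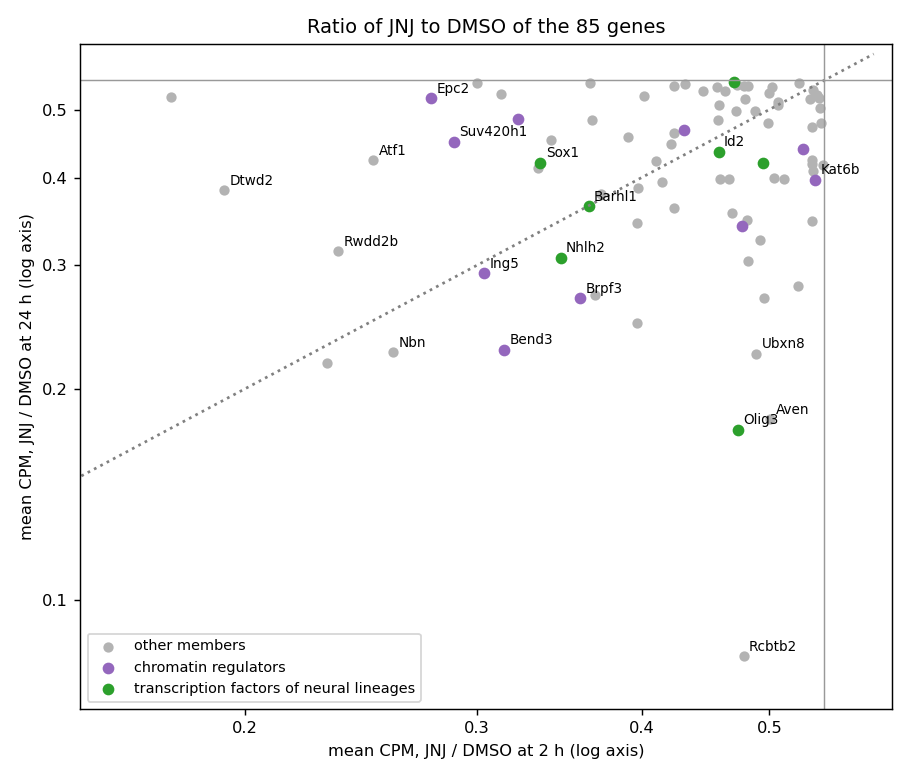
Ratio of mean CPM in JNJ to DMSO at 2 h (horizontal, log axis) and at 24 h (vertical, log axis) for each of the 85 genes, 1 point per gene, with equal ratios on the dotted line and the selection threshold of 0.55 as solid lines. Rcbtb2 lies lowest at 24 h (0.0831) although its 2 h ratio was 0.478, while Dtwd2 (0.193 and 0.384) and Epc2 (0.277 and 0.519) lie above the dotted line.

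The threshold cut through a continuous range of ratios. Just inside it at 2 h were Zcchc10 (0.547) and Zbed3 (0.549), and those just outside, which met every other condition, were Cbx5 (0.551), Zfp532 (0.556) and Suv39h2 (0.559). At 24 h Ctps (0.546), Zfp628 (0.546) and Hes3 (0.548) were just inside, and Zfp644 (0.553), Sp2 (0.553) and Txnl4b (0.555) just outside. Of those left outside, Cbx5 codes for the heterochromatin protein HP1 alpha and Suv39h2 for a histone H3 lysine 9 methyltransferase.

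**Figure D2:**
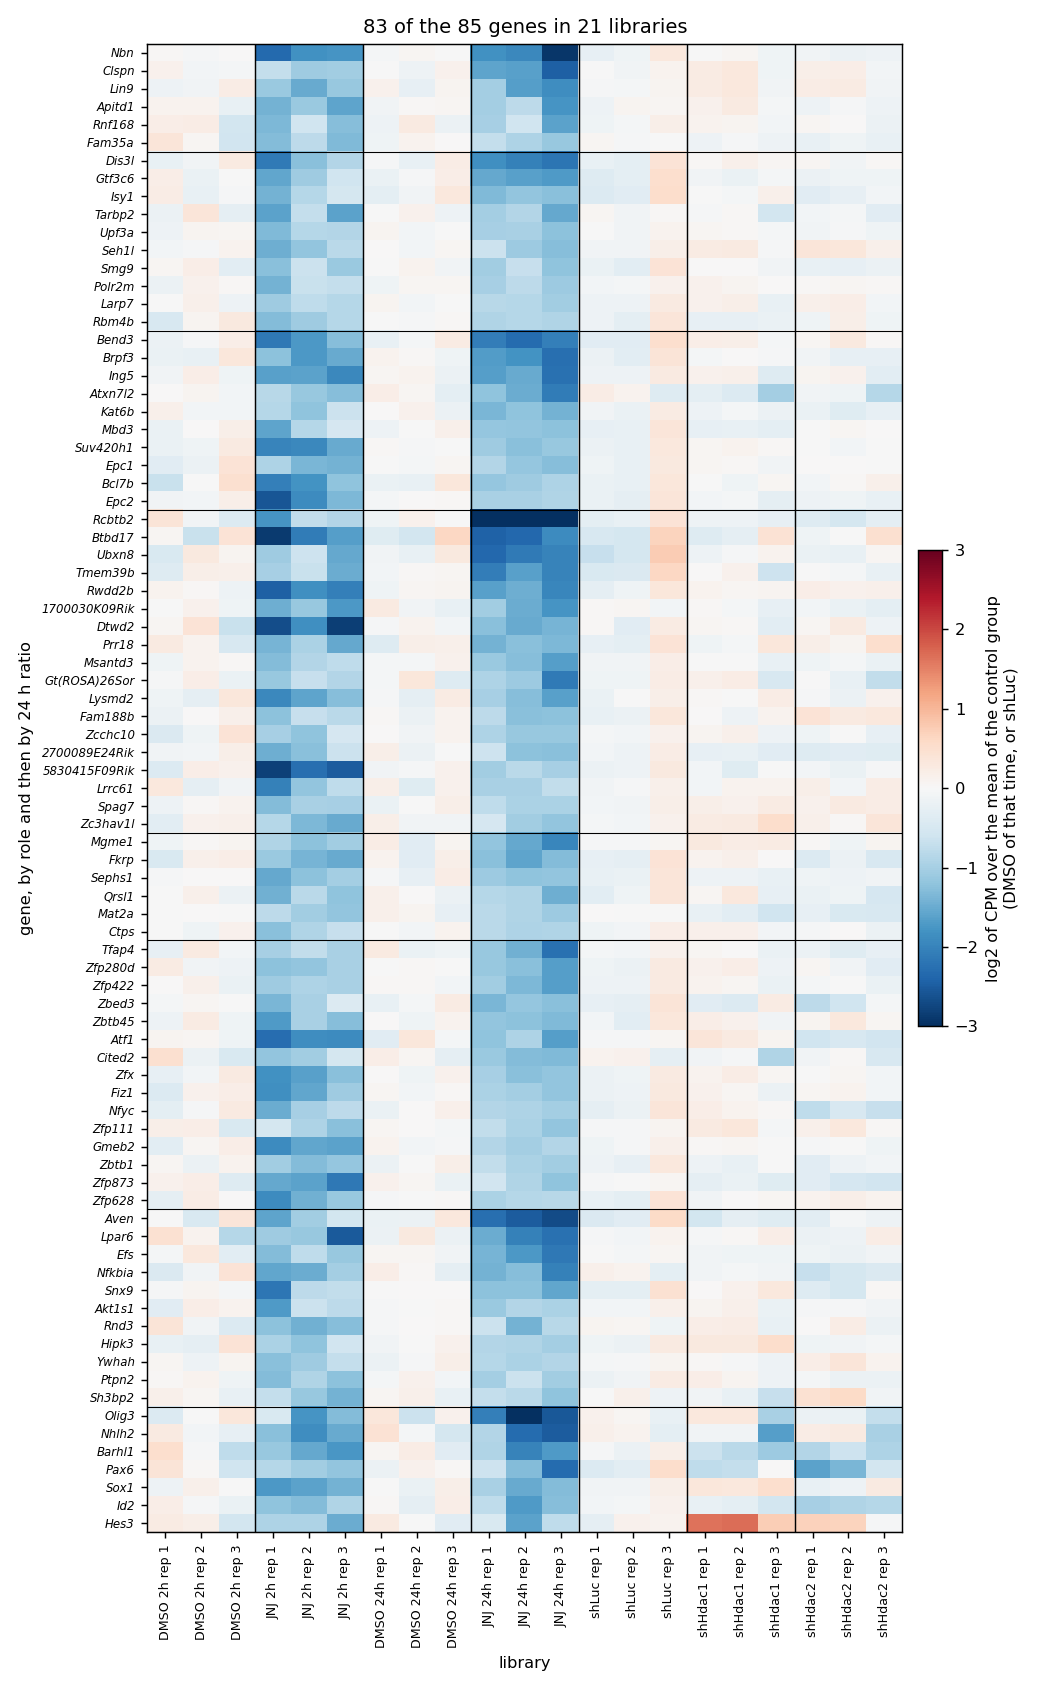
Level of 83 of the 85 genes (rows, grouped by role) in each of the 21 libraries (columns), as log2 of CPM over the mean of the control group of that time or of shLuc. The JNJ columns are below 0 by selection. The hairpin columns are mixed, with Hes3 high in shHdac1, Barhl1 low in both shHdac1 and shHdac2, and Id2 lowest in shHdac2.

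By role, the 85 genes were sorted, after their values were seen, into transcription factors of neural lineages (7), other transcription factors and zinc finger proteins (16), chromatin regulators (10), genes of RNA synthesis, processing, decay and transport (10), genes of the DNA damage response and cell cycle (6), genes of metabolism and mitochondria (7), genes of signalling and survival (11) and little described or other genes (18). The chromatin regulators had the lowest median ratio of these at 2 h (0.341), with 0.418 at 24 h. The genes of RNA handling had the highest at 2 h (0.496), and those of signalling and survival the highest at 24 h (0.508).

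The neural transcription factors were Barhl1, Nhlh2, Sox1, Id2, Olig3, Pax6 and Hes3. Barhl1, a homeobox factor of granule neuron progenitors that acts downstream of ATOH1, had 96.2, 66.2 and 39.9 CPM in DMSO 2 h and 30.5, 23.3 and 19.9 in JNJ 2 h. At 24 h it had 87.8, 98.6 and 66.6 CPM in DMSO and 44.9, 21.1 and 26 in JNJ. Its ratio was the same at both times (0.365 and 0.364), and its DMSO libraries spread widely, so that the highest JNJ library at 2 h lay not far below the lowest DMSO library.

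Nhlh2 codes for a basic helix-loop-helix factor of newly formed neurons. It had 92.2, 72.8 and 65.1 CPM in DMSO 2 h against 32.0, 20.9 and 27.0 in JNJ 2 h. At 24 h it had 125, 88.5 and 64.0 CPM in DMSO and 50.4, 18.7 and 16.3 in JNJ. JNJ 24 h replicate 1 was the highest of its group for Barhl1, Nhlh2, Sox1, Id2, Olig3, Pax6 and Hes3 alike.

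Sox1, a SoxB1 factor that keeps neural progenitors undifferentiated, had 216, 267 and 238 CPM in DMSO 2 h and 72.7, 78.8 and 90.2 in JNJ 2 h. At 24 h the values were 234, 204 and 267 in DMSO and 119, 82.2 and 94.7 in JNJ. The groups stood far apart at both times. Id2, whose product binds and blocks basic helix-loop-helix factors, had 192, 165 and 147 CPM in DMSO 2 h and 73.0, 68.0 and 89.6 in JNJ 2 h. At 24 h Id2 had 200.2, 161 and 223 CPM in DMSO and 115, 59.7 and 80.4 in JNJ.

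Olig3, a basic helix-loop-helix factor of progenitors in the rhombic lip and dorsal neural tube, was lowered further at 24 h than at 2 h. Its levels were 23.3, 31.0 and 39.2 CPM in DMSO 2 h and 22.5, 9.10 and 12.6 in JNJ 2 h. At 24 h they were 47.7, 24.4 and 41.2 CPM in DMSO and 9.05, 4.35 and 6.44 in JNJ. At 2 h its groups were separated by less than 1 CPM, in JNJ replicate 1 and DMSO replicate 1, while at 24 h the gap was wide (ratios 0.473 and 0.175).

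Pax6 and Hes3 were the neural factors with the fewest counts. Pax6, a paired-homeobox factor of the granule lineage, had 13.3, 10.4 and 6.68 CPM in DMSO 2 h, 5.62, 4.88 and 4.48 in JNJ 2 h, 11.9, 14.8 and 13.9 in DMSO 24 h and 8.87, 5.47 and 2.73 in JNJ 24 h. Hes3, a HES repressor linked to neural stem cells, had 12.8, 12.2 and 7.40 CPM in DMSO 2 h, 5.65, 5.69 and 3.88 in JNJ 2 h, 18.9, 15.5 and 12.4 in DMSO 24 h and 11.4, 5.14 and 9.16 in JNJ 24 h. Both lay near the minimum of the rule. Pax6 overlaps an antisense gene, Pax6os1, on the opposite strand, and the strand that was counted is not given in the sources used here.

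**Figure D3:**
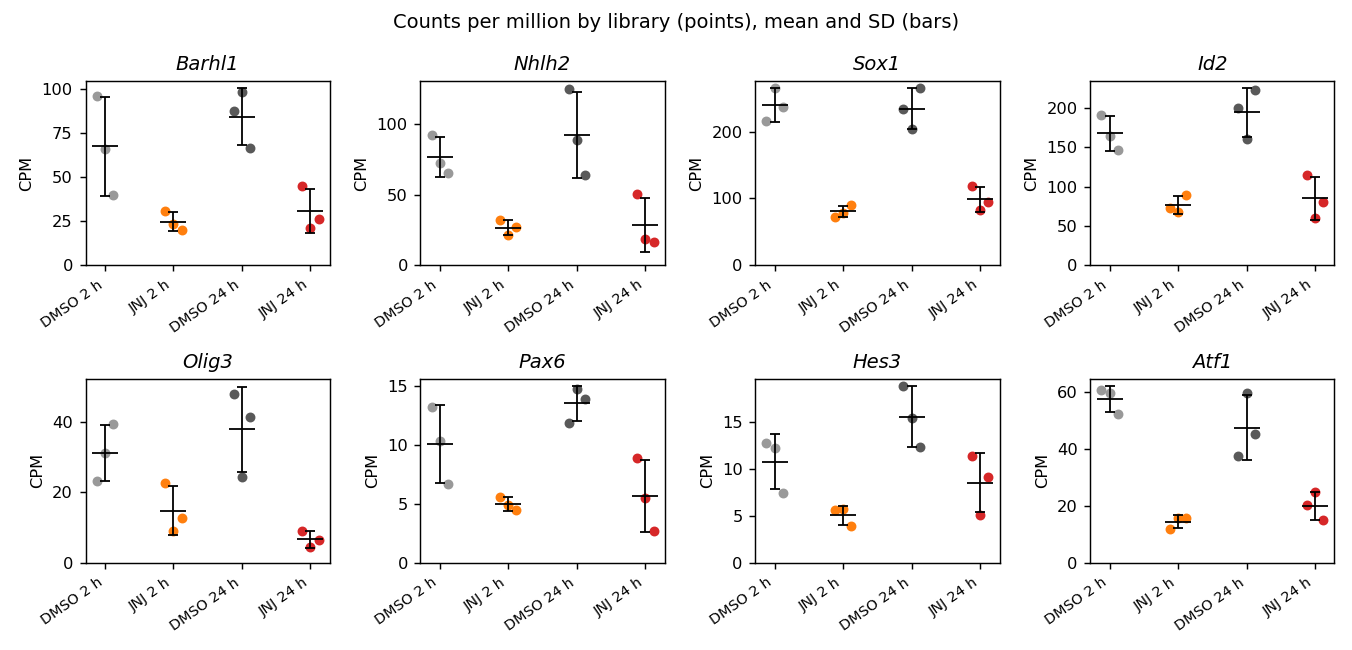
CPM of the 7 neural transcription factors and of Atf1 in each DMSO and JNJ library (points), with the mean and SD of each group of 3 libraries (bars). Sox1 goes from 240.3 to 80.6 CPM at 2 h and from 235 to 98.7 at 24 h, while Olig3 reaches its lowest mean, 6.61 CPM, in JNJ 24 h.

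Lists of genes written from general knowledge, with earlier results of these data known, place these factors among their relatives. They do not hold the genes left out by name. Of 35 cerebellar granule lineage genes with the DMSO minimum, 5 (14.3%) were among the 85 (Barhl1, Pax6, Nhlh2, Id2 and Sox1), against 0.917% of all 9268 genes. By the rule 8 of the 35 were lower at 2 h and 9 at 24 h, and their median ratios were 0.748 and 0.828. Of 34 basic helix-loop-helix and HES factors, 4 were among the 85 (Hes3, Olig3, Nhlh2 and Id2), with list medians of 0.835 and 0.863. Of 37 homeobox factors 2 were (Barhl1 and Pax6), and of 32 BTB zinc finger factors 2 were (Zbtb1 and Zbtb45). These shares describe the selection and carry no test.

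Other lists held few or none of the 85. Of all 9268 genes 0.917% were members, 2.97% were lower at 2 h and 6.53% at 24 h. At that share of members a list of this size can be expected to hold few or none. A count of 0 is therefore not read as a trait of the 85. None of 17 hedgehog targets was a member: 0 were lower at 2 h and 5 at 24 h, with median ratios of 0.906 and 0.884. None of 41 genes of the G1/S transition and replication was a member, since 0 were lower by the rule at 2 h and 26 at 24 h (medians 0.837 and 0.480). The cyclin genes Ccnd1 and Ccne2 met the rule at both times but were left out by name, and this list does not hold them. The 49 ribosome biogenesis and MYC target genes had 1 lower at 2 h and 7 at 24 h, and the 45 DNA repair and checkpoint genes 1 and 14, with no gene at both times. The last list does not hold Nbn, Rnf168, Fam35a or Clspn, the members of that kind described below. Of 24 feedback genes of FGF, Wnt, BMP and Notch signalling the 1 member was Id2. No member came from the 23 jumonji-domain oxygenases, the 15 immediate-early genes or the 3 glial and non-neural markers with the DMSO minimum.

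The sequences upstream of Barhl1, Id2 and Atf1 are shown because these are the 3 members that fell with the hairpin against Hdac2, described below. They are the 250 bases before the RefSeq start of each gene in GRCm38.p6, on the gene's strand: chr2:28916669-28916918 (minus strand) for Barhl1, chr12:25096093-25096342 (minus) for Id2 and chr15:100227609-100227858 (plus) for Atf1. Capitals mark CAGCTG, an E-box of the kind bound by proneural basic helix-loop-helix dimers, and in Atf1 also CACGTG, the E-box of MYC.
Barhl1: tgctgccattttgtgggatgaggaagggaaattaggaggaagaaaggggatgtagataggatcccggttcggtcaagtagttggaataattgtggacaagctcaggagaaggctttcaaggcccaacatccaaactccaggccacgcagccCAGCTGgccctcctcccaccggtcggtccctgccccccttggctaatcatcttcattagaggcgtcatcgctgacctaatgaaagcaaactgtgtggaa
Id2: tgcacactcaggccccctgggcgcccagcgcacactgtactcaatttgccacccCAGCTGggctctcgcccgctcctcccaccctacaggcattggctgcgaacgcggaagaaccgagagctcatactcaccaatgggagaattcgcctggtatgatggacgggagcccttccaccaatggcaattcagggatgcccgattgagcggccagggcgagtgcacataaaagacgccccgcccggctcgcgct
Atf1: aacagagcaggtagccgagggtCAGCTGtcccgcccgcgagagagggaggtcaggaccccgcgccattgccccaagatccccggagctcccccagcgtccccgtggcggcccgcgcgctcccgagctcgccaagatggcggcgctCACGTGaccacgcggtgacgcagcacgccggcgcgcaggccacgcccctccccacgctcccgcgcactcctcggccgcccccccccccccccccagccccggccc
The CAGCTG starts 99 bases before the start of Barhl1, 196 before that of Id2 and 228 before that of Atf1, and the CACGTG of Atf1 starts 105 bases before it. RefSeq lists 2 starts for Barhl1, of which 1 is shown.

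The share of promoters with CAGCTG differed little between the members and other genes. In windows from 250 bases before to 50 after the start, searched on both strands, it was found in 16.4% of the 67 members' promoters that could be matched, 13.4% of the 7522 matched among all genes with the DMSO minimum and 16.1% of 27025 promoters in all. CACGTG was found in 10.4%, 10.8% and 7.24%. CCGGAAG, the core of ETS sites, was found in 10.4% of members against 21.2% of genes with the minimum, and TATAAA in 11.9% against 5.94%. CCAAT was found in 31.3% against 39.7%, TTTCGCGC (E2F) in 2.99% against 0.771%, GCATGCGC (NRF1) in 4.48% against 6.58%, and TGACGTCA (CRE) in 4.48% against 3.68%. TGGGTGGTC, the site of GLI factors, was in 0 of the 67 windows and in 0.253% of those of genes with the minimum. Median G+C was 60.7% for members and 62% for genes with the minimum. These are counts of letters in a window, with 67 promoters behind each share.

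The members were shorter and had fewer exons than other genes with the DMSO minimum. In the GENCODE annotation of GRCm38, all 85 could be matched and 84 code for protein. Their median span was 16.6 kb against 26.2 kb, their median number of exons 6 against 9, and 5 of them (5.88%) had 1 exon, against 1.86%. They lie on 20 chromosomes. Among them 8 (9.41%) had another gene starting within 1 kb on the opposite strand, against 12.5%. Of the 6 such partners with the DMSO minimum, 0 had a ratio of at most 0.55 at either time, and their median ratios were 0.948 and 0.882. For example, Glud1, the partner of Fam35a, had ratios of 1.02 and 1.11 where Fam35a had 0.463 and 0.532.

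Among the other transcription factors, Atf1 had the lowest ratio at 2 h. Atf1, a relative of CREB that binds cyclic AMP response elements, had 60.6, 59.8 and 52.4 CPM in DMSO 2 h and 11.8, 15.8 and 15.7 in JNJ 2 h. At 24 h it had 37.4, 59.8 and 45.2 CPM in DMSO and 20.4, 24.9 and 15.0 in JNJ, so that it stood closer to DMSO than at 2 h (ratios 0.25 and 0.423). Its relative Creb1 had ratios of 0.559 and 0.622 and did not meet the rule.

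Nfyc codes for a subunit of NF-Y, the factor that binds CCAAT boxes, and had ratios of 0.479 and 0.518. The partner subunits differed between times: Nfya had 0.513 and 0.937, and Nfyb 0.682 and 0.645. Zbtb1 (0.446 and 0.532) and Zbtb45 (0.410 and 0.422) are BTB zinc finger genes, and the latter overlaps Trim28 on the opposite strand. Zfp422, a zinc finger gene with 252, 276 and 218 CPM in DMSO 2 h, had 119, 131 and 126 in JNJ 2 h, and 254, 251 and 234 against 120.0, 97.4 and 78.0 at 24 h. Among zinc finger and DNA-binding genes with low ratios at 2 h, Zfp873 (0.30) and Gmeb2 (0.313) were nearer to DMSO at 24 h (0.545 and 0.525).

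Of 79 chromatin writers, readers and remodellers with the DMSO minimum, 2 (2.53%) were members (Kat6b and Suv420h1), and the list's median ratios were 0.841 and 0.770. That list does not hold the other chromatin regulators named here. Several of those among the 85 belong to acetyltransferase complexes. Ing5 and Brpf3 code for scaffold and reader subunits of the MOZ/MORF and HBO1 complexes, Kat6b for the MORF acetyltransferase itself, and Epc1 and Epc2 for enhancer of polycomb proteins of the NuA4/TIP60 complex. Ing5 had 88.6, 108 and 87.2 CPM in DMSO 2 h and 30.3, 31.0 and 24.8 in JNJ 2 h, then 87.5, 90.8 and 74.4 in DMSO 24 h and 26.8, 29.3 and 17.7 in JNJ 24 h. Its groups were far apart at both times.

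Brpf3 went from 34.8, 34.3 and 50.5 CPM to 16.9, 12.0 and 14.0 at 2 h, and from 48.5, 46.3 and 41.4 to 14.2, 13.0 and 9.42 at 24 h. Kat6b was near the threshold at 2 h (0.542) and lower at 24 h (0.397), with 68.9, 74.6 and 60.3 CPM in DMSO 24 h and 26.1, 29.3 and 25.5 in JNJ 24 h. The 3 genes together make up 3 of the 7 MOZ/MORF subunit genes with the DMSO minimum, a list of subunits made after the members were known, where 0.917% of all 9268 genes are members. The median ratios of those 7 were 0.653 at 2 h and 0.397 at 24 h. The other subunits were spread: Meaf6 had 0.653 and 0.320, Brd1 0.764 and 0.647, Kat6a, which codes for MOZ, 0.890 and 0.819, and Brpf1 1.03 and 0.776.

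Epc2 had 108, 109 and 130 CPM in DMSO 2 h and 19.4, 31.2 and 45.4 in JNJ 2 h. At 24 h it had 91.6, 95.4 and 97.9 CPM in DMSO and 48.6, 48.4 and 50.7 in JNJ. The 24 h libraries were tight and their ratio (0.519) was nearer to 1 than the 2 h ratio (0.277). Epc1, named after its values were seen, had ratios of 0.430 and 0.467. These are 2 of the 18 subunit genes of NuA4/TIP60 (11.1%, against 0.917% of all 9268 genes), a list also made after the members were known. The median ratios of the 18 were 0.720 and 0.741, and the acetyltransferase gene Kat5 had 0.595 and 0.644.

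**Figure D4:**
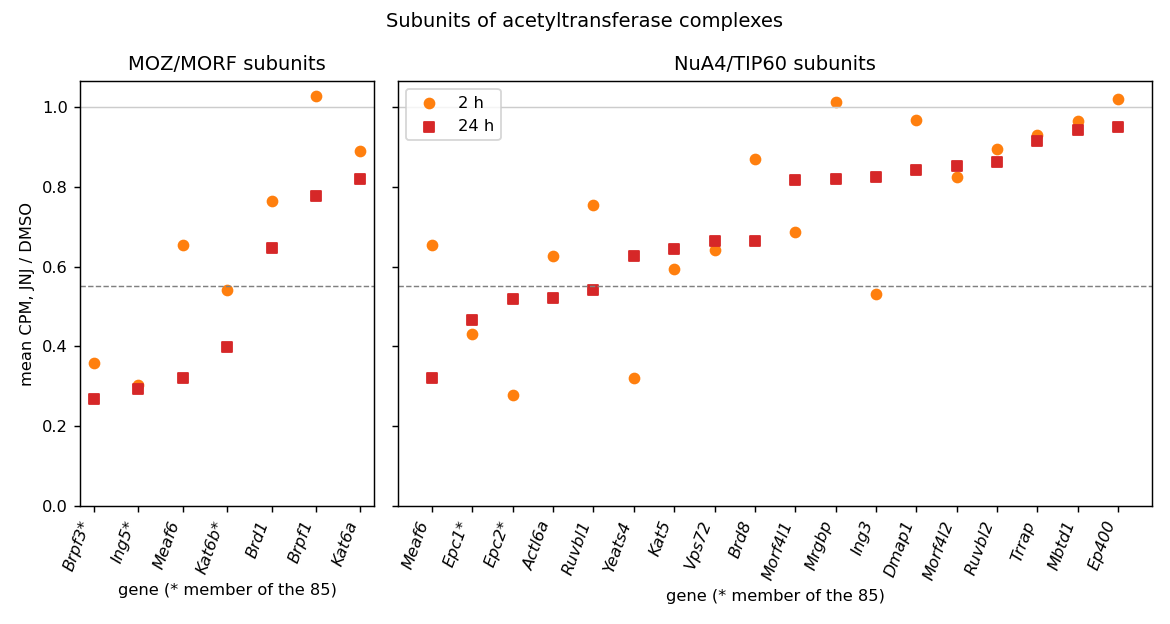
Ratio of mean CPM in JNJ to DMSO at 2 h (circles) and 24 h (squares) for the subunit genes of the MOZ/MORF and NuA4/TIP60 acetyltransferase complexes, with an asterisk on the members of the 85 and a dashed line at 0.55. Brpf3, Ing5 and Kat6b lie under the line at both times on the left and Epc1 and Epc2 on the right, while Kat6a (0.890 and 0.819) and Ep400 (1.02 and 0.949) lie near 1.

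Suv420h1, a histone H4 lysine 20 methyltransferase gene, had 71.9, 75.3 and 100.05 CPM in DMSO 2 h and 20.7, 21.5 and 29.0 in JNJ 2 h, with 75.6, 72.6 and 73.9 in DMSO 24 h and 35.6, 30.8 and 33.6 in JNJ 24 h. Bend3, which codes for a BEN-domain repressor of heterochromatin, had 75.2, 83.6 and 98.2 CPM in DMSO 2 h and 19.4, 25.9 and 35.6 in JNJ 2 h. At 24 h Bend3 had 56.2, 62.9 and 77.8 CPM in DMSO and 15.7, 13.3 and 15.8 in JNJ. Suv420h1 was nearer to DMSO at 24 h and Bend3 further from it. Mbd3, a subunit gene of NuRD, the co-repressor complex that holds HDAC1 and HDAC2, had ratios of 0.530 and 0.439, and was the 1 member among 13 NuRD genes (medians 0.798 and 0.797). Of 26 BAF remodeller genes 1 was a member, Bcl7b (medians 0.775 and 0.751). The shares are 7.69% for NuRD and 3.85% for BAF, against 0.917% of all 9268 genes, in lists made after the members were known.

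In the DNA damage and cell cycle group, Nbn had the lowest ratios. Nbn codes for nibrin of the MRE11-RAD50-NBN complex, which senses DNA double-strand breaks. It had 48.4, 46.6 and 47.5 CPM in DMSO 2 h and 9.49, 13.4 and 14.0 in JNJ 2 h, with 43.5, 47.3 and 44.8 in DMSO 24 h and 12.8, 11.8 and 6.01 in JNJ 24 h. Its DMSO libraries varied little, and the JNJ libraries lay far below them at both times. Its partners had higher ratios at 2 h: Rad50 had 0.579 and 0.643, and Mre11a 0.840 and 0.441.

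Rnf168, a ubiquitin ligase gene that acts at damaged chromatin, had ratios of 0.488 and 0.497, and Fam35a, a gene of the shieldin complex that limits end resection, 0.463 and 0.532. With Nbn they are 3 of 11 genes (27.3%) of the MRN and 53BP1 pathway (medians 0.806 and 0.605), against 0.917% of all 9268 genes. That list was made after the members were known. Clspn, which codes for claspin of the replication checkpoint, had 0.526 and 0.280, and Lin9, a subunit gene of the MuvB core that regulates cell cycle genes, 0.423 and 0.363. Clspn and Lin9 were named after their values were seen, as were Rnf168 and Fam35a.

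Genes of RNA handling had median ratios of 0.496 at 2 h and 0.493 at 24 h, above the 0.463 and 0.436 of all 85. Dis3l, a cytoplasmic exosome ribonuclease gene, had 34.1, 36.9 and 47.7 CPM in DMSO 2 h, 9.03, 16.7 and 21.4 in JNJ 2 h, 35.5, 31.4 and 42.3 in DMSO 24 h and 10.2, 8.98 and 7.97 in JNJ 24 h. It was lower relative to DMSO at 24 h than at 2 h (0.249 and 0.397). Polr2m, which codes for a subunit bound to RNA polymerase II (ratios 0.537 and 0.518), and Seh1l, a nucleoporin gene (0.458 and 0.508), were among the 10 members with most counts. The nonsense-mediated decay genes Upf3a (0.499 and 0.479) and Smg9 (0.508 and 0.512), named after their values were seen, were 2 of 10 genes of that pathway, whose medians were 0.924 and 0.841. This share is 20%, against 0.917% of all 9268 genes, in a list made after the members were known.

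Of the genes of metabolism, Mat2a and Ctps had the most counts. Mat2a makes S-adenosylmethionine, the methyl donor of histone and DNA methylation. It had 374, 375 and 373 CPM in DMSO 2 h and 216, 181 and 164 in JNJ 2 h, with 481, 458 and 366 in DMSO 24 h and 249, 235 and 205 in JNJ 24 h. Ctps makes CTP and had ratios of 0.527 and 0.546.

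Among signalling and survival genes, Rnd3 had the most counts of all 85, not corrected for length. Rnd3, a gene of an atypical small GTPase that acts on the actin cytoskeleton, had 567, 407 and 329 CPM in DMSO 2 h and 184, 159.8 and 180.2 in JNJ 2 h. At 24 h it had 497, 511 and 518 CPM in DMSO and 324, 191 and 283 in JNJ. Efs, an adaptor gene of Src signalling, had ratios of 0.481 and 0.305.

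Aven, an inhibitor gene of caspase activation, was among the lowest at 24 h, with 20.5, 20.7 and 29.2 CPM in DMSO and 4.91, 4.17 and 3.67 in JNJ, against a 2 h ratio of 0.501. Nfkbia, which codes for the NF-kappa-B inhibitor I-kappa-B alpha, had ratios of 0.397 and 0.345. Aven overlaps Ryr3 on the opposite strand, and its value is uncertain for that reason.

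The remaining genes with the lowest ratios are little described. Rcbtb2 had 113, 80.9 and 65.7 CPM in DMSO 2 h and 25.6, 51.8 and 46.8 in JNJ 2 h, then 88.7, 107 and 96.4 in DMSO 24 h and 8.78, 10.3 and 5.24 in JNJ 24 h. It had the lowest 24 h ratio of the 85, and overlaps Rb1 on the opposite strand. Btbd17 had ratios of 0.231 and 0.218, Rwdd2b 0.235 and 0.314, Dtwd2 0.193 and 0.384, Ubxn8 0.489 and 0.225, and Tmem39b 0.496 and 0.270. Of the 85, 4 have placeholder names and were counted only, and 23 of the 85 (27.1%, against 42.3% of genes with the minimum) overlap another gene in the annotation.

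Knockdown of the target genes was seen in the hairpin libraries. Hdac1 had 91.4, 97.1 and 96.5 CPM in shLuc and 32.6, 28.6 and 29.8 in shHdac1 (log2 -1.63, SE 0.09). Hdac2 had 317.6, 308 and 331 CPM in shLuc and 50.2, 48.1 and 53 in shHdac2 (log2 -2.66, SE 0.09). The question here is whether genes lowered by JNJ were also lower with less of 1 of its targets. All 85 were among the 13612 genes tested with edgeR's quasi-likelihood test in 1 fit of the 9 hairpin libraries, called at a Benjamini-Hochberg adjusted p under 0.05 over all of them. Both knockdown comparisons share the shLuc libraries.

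With the hairpin against Hdac2, Id2, Barhl1 and Atf1 fell and no member rose. Id2 had 176, 178 and 204 CPM in shLuc and 93.9, 100.4 and 103.5 in shHdac2 (log2 -0.91, SE 0.12, edgeR adjusted p = 0.0141). All 3 shHdac2 libraries lay far below all shLuc libraries. Barhl1 had 56.7, 51.9 and 65.9 CPM in shLuc and 31.7, 38.02 and 30.5 in shHdac2 (log2 -0.80, SE 0.15, edgeR adjusted p = 0.0373). Atf1 had 35.1, 35.3 and 37.5 CPM in shLuc and 23.8, 25.8 and 24.04 in shHdac2 (log2 -0.55, SE 0.10, edgeR adjusted p = 0.0373). The groups did not overlap for any of the 3. The sum of granule progenitor markers, which holds Barhl1, was also lower in shHdac2 (given above), and its part in these falls was not tested.

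That is 3 of 85 members lower (3.53%), where 140 of all 13612 genes (1.03%) were lower and 89 (0.654%) were higher. The median log2 over the 85 was -0.11, against -0.01 over all genes tested, and 59 of 85 (69.4%) were below 0, against 7118 of 13612 (52.3%). Among the 9268 genes with the DMSO minimum 1.40% were called lower, the median log2 was -0.02 and 53.3% were below 0. The summed level of the 85 was 5352, 5331 and 6440 CPM in shLuc and 5139 to 5506 CPM in shHdac2, so only shLuc replicate 3 lay above shHdac2. How far the lower median rests on that library was not tested. An unadjusted p under 0.05 was reached by 13 members (15.3%) and 2158 of all genes (15.9%). Of these, 11 members (12.9%) and 1113 genes (8.18%) were lower. Among genes with the DMSO minimum the shares were 17.4% in all and 9.45% lower. Fitted with only the shLuc and shHdac2 libraries, 0 of the 3 were called. The call of Id2 was also lost without shLuc replicate 2 and without shHdac2 replicates 1 or 2. The calls of Barhl1 and Atf1 were lost without each single library other than shLuc replicate 3 and shHdac1 replicate 3, and that of Atf1 also with no filter on low counts (edgeR adjusted p = 0.0583). Over these settings the edgeR or DESeq2 adjusted p ranged up to 0.0876 for Id2, 0.178 for Barhl1 and 0.181 for Atf1. Members with the next lowest p included Nfkbia (log2 -0.54, edgeR adjusted p = 0.0715), Mat2a (-0.40, 0.104), Zfp873 (-0.47, 0.121) and Nfyc (-0.65, 0.130), none of them called. With a replicate block, which pairs libraries by number, 419 genes (3.08%) were lower and 382 (2.81%) higher, and 8 members were called, all lower. They include Id2, Barhl1, Atf1, Pax6 (log2 -1.11, SE 0.10, edgeR adjusted p = 0.00411), Zbed3, Nfkbia and Mat2a.

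Pax6 shows what the block does. It had 16.3, 17.6 and 31.5 CPM in shLuc replicates 1 to 3 and 7.16, 8.47 and 14.8 in shHdac2, so that replicate 3 was the highest in each group and each shHdac2 library was below its own shLuc number. Without the block it was not called (log2 -1.11, SE 0.38, edgeR adjusted p = 0.202).

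With the hairpin against Hdac1, edgeR called 0 of the 85 in either direction, where 81 of all genes (0.595%) were lower and 21 (0.154%) higher. An unadjusted p under 0.05 was reached by 9 members (10.6%), 3 of them lower, and by 1687 of all genes (12.4%), 1006 of them lower. DESeq2 called Hes3 higher and Barhl1 and Mat2a lower, among 174 genes higher and 390 lower in all. The median log2 over the 85 was -0.00. Barhl1 had 37.4, 33.0 and 27.5 CPM in shHdac1, all below the shLuc libraries given above (log2 -0.82, SE 0.15, edgeR adjusted p = 0.0517). Hes3 had 13.8, 18.2 and 17.9 CPM in shLuc and 51.3, 53.4 and 27.9 in shHdac1 (log2 1.42, SE 0.27, edgeR adjusted p = 0.0567). Next in order of p, and not called, were Mat2a (log2 -0.36, edgeR adjusted p = 0.181), Id2 (-0.33, 0.258), Mgme1 (0.26, 0.275), Hipk3 (0.39, 0.311), Zc3hav1l (0.36, 0.322) and Sox1 (0.41, 0.340). Mgme1 codes for a mitochondrial exonuclease and overlaps Snx5, and Hipk3 for a protein kinase. So the Hes3 values with this hairpin lay above the control, opposite to those with JNJ.

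With the replicate block, 370 genes (2.72%) were lower and 153 (1.12%) higher with the hairpin against Hdac1. Of the 85, Barhl1 (log2 -0.83, edgeR adjusted p = 0.0379) and Atxn7l2 (-0.54, 0.0206), a gene of the ataxin-7 family, fell. Hes3 (1.36, 0.0259), Sox1 (0.42, 0.0312) and Zc3hav1l (0.36, 0.0347) rose. Sox1 had 247, 246 and 299 CPM in shLuc and 335, 328 and 377 in shHdac1.

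**Figure D5:**
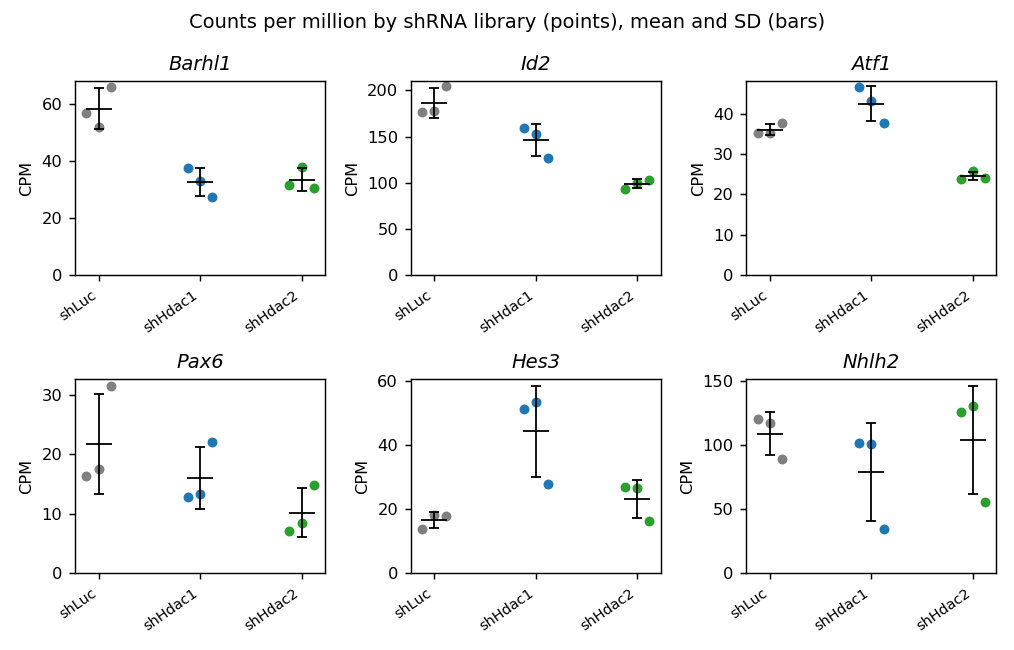
CPM of Barhl1, Id2, Atf1, Pax6, Hes3 and Nhlh2 in each shLuc, shHdac1 and shHdac2 library (points), with the mean and SD of each group of 3 libraries (bars). Barhl1 has means of 58.2, 32.6 and 33.4 CPM, Id2 is lowest in shHdac2 (99.3 CPM), and Hes3 is highest in shHdac1 (44.2 CPM).

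The knockdowns differed from each other in Atf1 and Id2. Atf1 had 46.5, 43.01 and 37.8 CPM in shHdac1, each above all shHdac2 libraries (log2 of shHdac1 over shHdac2 0.80, SE 0.10, edgeR adjusted p = 0.00866). Id2 had 160, 153 and 127 CPM in shHdac1, also above all shHdac2 libraries (0.57, SE 0.11, edgeR adjusted p = 0.0408). In this comparison 159 of all genes (1.17%) were lower in shHdac1 and 121 (0.889%) higher, and of the 85 members 0 were lower and these 2 higher. The Atf1 call was lost without shHdac1 replicates 1 or 2 or shHdac2 replicate 1 (adjusted p up to 0.0631), and the Id2 call without each single library other than shLuc replicate 3 and shHdac1 replicate 3 (up to 0.187). Barhl1, by contrast, had log2 changes of like size in both knockdowns, and was not called between them.

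Replicate 3 stood apart from replicates 1 and 2 in each hairpin group. Across genes, the residuals of shHdac1 replicate 3 correlated at 0.801 with those of shHdac2 replicate 3 and at -0.584 or lower with those of shHdac2 replicates 1 and 2. Residuals were taken from the mean of each group, so the negative values follow in part from the 0.801 and are not separate evidence. Nhlh2, for one, had 101, 101 and 34.4 CPM in shHdac1. The 85 genes summed to 5352, 5331 and 6440 CPM in shLuc replicates 1, 2 and 3, to 5886, 5886 and 5179 in shHdac1, and to 5407, 5506 and 5139 in shHdac2. Without shLuc replicate 3, 10 members were called higher and 1 lower with the hairpin against Hdac1, among 602 and 910 genes in all, and 7 higher and 4 lower with the hairpin against Hdac2, among 588 and 624. Id2, Barhl1 and Atf1 were again among the lower members with the hairpin against Hdac2. The counts of members called thus depended on shLuc replicate 3.

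Genes that JNJ lowered at 1 time only were set beside the 85 in the knockdowns. Of 231 genes lower at 24 h with at least 0.8 of DMSO left at 2 h, 8 (3.46%) were lower and 1 higher with the hairpin against Hdac2, with a median log2 of -0.12, close to the 3.53% and -0.11 of the 85. Of 61 genes lower at 2 h with at least 0.8 of DMSO left at 24 h, 0 were called in either direction, with a median log2 of 0.01. Over all genes tested 1.03% were called lower and 0.654% higher, so 0 of 61 lies near that share. An unadjusted p under 0.05 by edgeR was reached by 8 of the 61 (13.1%), against 15.9% of all genes tested. With the hairpin against Hdac1 the counts were 2 lower (0.866%) and 0 higher of the 231 and 0 of the 61. Over all genes tested 0.595% were lower and 0.154% higher with that hairpin. The differences between these sets were not tested.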

How the data were processed

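RNA was sequenced from 21 libraries of SMB21 cells in 7 groups of 3. Per the labels' protocols, TruSeq Stranded mRNA libraries were read as single-end 75 bp reads, and per the submitters' processing notes STAR 2.5.1b and mm9 were used. The authors deposited raw read counts per gene symbol. Which strand was counted, by which annotation, and what became of multi-mapped reads is not given in the sources used here. Values of overlapping genes and close paralogs are uncertain for that reason. 14 gene names have the form of a date and were kept in the tests.

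CPM were computed by column total for the rule and for every level given. Members and lists were chosen with earlier results of these data known. The roles and complexes were assigned after the values were seen. Genes were named by a rule: most counts in DMSO (10), lowest ratios at each time (10 each), lowest p in each knockdown (8 each), every member in a list, and those nearest the threshold. Some genes that the rule names are left out here. Others are said to be named after their values were seen. Libraries held 23094799 to 39341784 counts, and the lowest count of a member in any library was 64.

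Separate fits of the 9 hairpin libraries and the 12 drug libraries were made in edgeR 4.0.16 under R 4.3.3 (filterByExpr with minimum count 10 and minimum total 15, TMM, quasi-likelihood test, two-sided, Benjamini-Hochberg over all genes tested), with group as the only term. For the drug libraries only log2 changes were taken. The code was tested on simulated data. Residuals of hairpin libraries with the same replicate number correlated at 0.247 to 0.801, above 0.1 for every pair, so a replicate block was fitted too. Replicate 2 correlated more with another number than with its own. For shLuc replicate 2 the values were 0.323 against 0.247 with shHdac1, and 0.420 against 0.255 with shHdac2. For shHdac1 replicate 2 they were 0.587 against 0.492 with shHdac2. Whether numbers 1 and 2 mark true pairs therefore cannot be told from these values. Among drug libraries all same-number pairs were above 0.1 at 24 h (0.572 to 0.659) but not at 2 h, where DMSO and JNJ replicates 1 had -0.0015. Other settings were DESeq2 1.42.0, RLE factors, library totals, no filter, only the compared groups, and leaving out each library. RefSeq promoters (GRCm38.p6) were matched by symbol to 67 of the 85 genes and GENCODE M21 models to all 85, and no coordinates of mm9 were used.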

Additional observations from a re-analysis of the deposited data

How the results depend on the processing

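The number of genes that met the rule was 85 without the 7 left out by name, which were left out in every setting here. It was 144 with TMM-scaled totals (84 of the 85 among them) and 130 with upper-quartile scaling (all 85 among them). It was 45 with a ratio of at most 0.5, 153 with a ratio of at most 0.6, and 71 to 114 when single libraries were left out. The lowest was without JNJ 2 h replicate 1 and the highest without JNJ 2 h replicate 3. At 24 h the members' median log2 was -1.20 by library totals and -1.40 to -1.27 without single libraries, and that at 2 h was -1.22 to -1.08.

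For shHdac1 against shLuc, all genes called lower and higher were 390 and 174 with DESeq2, 370 and 153 with the replicate block, and 4 and 1 with only the compared groups. Members called lower were 1 with RLE factors, library totals or no filter, 2 with DESeq2 and 2 with the block, and members called higher were 1 with DESeq2, 1 with no filter and 3 with the block. For shHdac2 against shLuc, all genes lower and higher were 439 and 380 with DESeq2, 419 and 382 with the block, and 10 and 9 with only the compared groups, and members lower were 8, 8 and 0. For shHdac1 against shHdac2, all genes lower and higher were 491 and 339 with DESeq2, 552 and 334 with the block, and 362 and 241 with only the compared groups. Members lower were 1 and higher 5 with DESeq2, 1 and 6 with the block, and higher 5 with only the compared groups. The cause was not tested.

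Leaving out single libraries gave 2 to 910 genes lower and 0 to 602 higher for shHdac1 against shLuc (members 0 to 1 and 0 to 10), 8 to 624 and 2 to 588 for shHdac2 against shLuc (members 0 to 4 and 0 to 7), and 12 to 697 and 18 to 470 for shHdac1 against shHdac2 (members 0 to 1 and 0 to 6). The highest of each came without shLuc replicate 3. The log2 changes of Id2, Barhl1 and Atf1 with the hairpin against Hdac2 kept their sign under every setting tried, at -0.97 to -0.79, -0.90 to -0.66 and -0.59 to -0.47 without single libraries. Their adjusted p ranged over all settings from 6.25e-09 to 0.0876, 0.000246 to 0.178 and 0.000317 to 0.181. Of the other settings of the 5 calls on members, 44 kept and 31 lost the call.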
